A study of Mus musculus with 8 samples.

Results

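Genes of neutrophil granules and of the neutrophil cytosol were described in the cochlear soft tissue of 8 CBA/CaJ mice, ordered by the stage of maturation at which neutrophils make them. The 10 genes were chosen by symbol: 4 of the primary granules (Mpo, Elane, Prtn3 and Ctsg), 4 of the secondary granules (Camp, Ngp, Ltf and Lcn2) and 2 of the mature cell (S100a8 and S100a9). Each had 1 probe set on the Affymetrix Mouse Genome 430 2.0 array whose platform annotation named that gene alone, and the 10 were set against all 18194 genes read in this way. The series holds 1 group, normal cochlea: 8 mice of the inbred strain CBA/CaJ, an array for each mouse with its ears pooled. All of them were killed with urethane (300 mg/kg, injected into the abdomen) and perfused with saline through the heart. Perfusion is meant to remove blood cells, but how far it did so in each mouse was not measured. The bony shell of the cochlea was taken off before the soft tissue was collected. The labels give no treated group, age or sex, so the comparisons are between genes and between mice, and a mouse's number is only its name.

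Neutrophils arise in bone marrow from dividing precursors. The promyelocyte, an early precursor, transcribes the genes of the primary granules and then shuts them off. The next stages, the myelocyte and metamyelocyte, transcribe those of the secondary granules, while S100a8 and S100a9 RNA stays abundant into the segmented cell that leaves for the blood. RNA of primary granule genes is therefore known as a mark of early precursors, and RNA of the later genes as a mark of cells further along. In RNA from a whole tissue, fewer cells of a type and less RNA per cell cannot be told apart.

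Genes known from the cochlea were present on all arrays. All 16 listed cochlear genes, such as Coch and Otos of the spiral ligament, exceeded the background threshold on all 8 arrays, and their mean log2 deviation from the 8-mouse mean lay between -0.14 and 0.16 in every mouse. Their own log2 SD ran from 0.09 to 0.54 (median 0.15), highest for the neurofilament gene Nefl (1740.6 to 6059.0). Background was judged on each array from probe sets of olfactory and vomeronasal receptors and of genes of unrelated organs, with their 95th percentile as the threshold, which ranged from 41.7 to 73.8. All levels are linear signals in arbitrary units, scaled to the same trimmed mean (500.0) on each array; signals of one probe set are therefore compared between mice, and no level is set against that of another probe set. With 8 arrays, precision is limited by their number, and no mouse was measured more than once, so technical error is unknown.

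The mature genes differed widely between mice. S100a8, which forms the calcium-binding dimer calprotectin with S100a9, measured 1758.8, 5009.9, 9220.2, 3659.1, 5957.4, 8428.9, 528.0 and 5552.2 in mice 1 to 8 (mean 5014 ± 3002, SD, n = 8). Its partner S100a9 measured 3896.5, 8884.9, 13758.5, 6249.3, 10249.4, 12290.2, 1023.8 and 9464.4 (8227 ± 4271). For each of these genes mouse 3 was highest, mouse 7 lowest and mouse 1 next to lowest, and mouse 8 lay in the middle of the order at rank 4. The highest signal was 17.5 times the lowest for S100a8 and 13.4 times for S100a9. They are neighbours on chromosome 3 of the RefSeq annotation.

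The secondary granule genes had a similar order of mice. Camp, which encodes the cathelicidin precursor of an antimicrobial peptide, measured 372.2, 1262.7, 1991.2, 518.9, 1271.9, 2010.0, 72.0 and 1130.1 in mice 1 to 8. Ngp, neutrophilic granule protein, a relative of the cathelicidins, measured 264.2, 877.7, 1468.8, 608.1, 951.2, 1453.7, 57.5 and 957.8. In Camp and Ngp alike mice 7, 1 and 4 were the 3 lowest, and mouse 8 lay well above them. Ltf, the iron-binding lactoferrin, measured 63.4, 222.1, 476.2, 194.2, 370.6, 497.9, 42.6 and 272.0. Lcn2, lipocalin 2, which binds bacterial siderophores, measured 240.9, 705.1, 1375.5, 597.2, 877.3, 1305.4, 146.8 and 904.3. In these genes too mice 7, 1 and 4 were the 3 lowest, and mouse 8 was at rank 4 for Ltf and rank 3 for Lcn2. All 4 secondary and both mature genes were above background on all 8 arrays, as were 63.1% of all genes. The highest signal was 9.37 times (Lcn2) to 27.9 times (Camp) the lowest.

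Primary granule genes were near or below background in several mice, and mouse 8 joined the lowest. Mpo, the myeloperoxidase that makes hypochlorous acid, measured 164.4, 622.6, 1013.6, 260.2, 536.1, 851.5, 31.1 and 103.0 in mice 1 to 8 and was above background in all but mouse 7. Its highest signal was at least 24.3 times its lowest, taking the threshold in mouse 7 as the bound. Mouse 8, at rank 4 for S100a8 and S100a9, was at rank 7 for Mpo. Elane, neutrophil elastase, measured 46.5, 151.3, 174.5, 28.3, 79.7, 156.1, 26.2 and 26.7. Prtn3, proteinase 3, measured 22.4, 66.0, 107.0, 48.3, 76.4, 71.2, 4.0 and 3.6. Ctsg, the serine protease cathepsin G, measured 27.7, 136.6, 231.7, 61.4, 93.3, 156.7, 10.4 and 27.8. Elane and Prtn3 were above background in mice 2, 3, 5 and 6 only, and Ctsg in mice 2 to 6. Values below the threshold have no reliable order, so that of Elane, Prtn3 and Ctsg among mice 1, 7 and 8 is not read. Against the threshold, the highest signals of the 3 proteases were at least 4.18 (Elane), 2.28 (Prtn3) and 5.56 (Ctsg) times those of their lowest mice. Elane and Prtn3 are neighbours on chromosome 10.

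**Figure D1:**
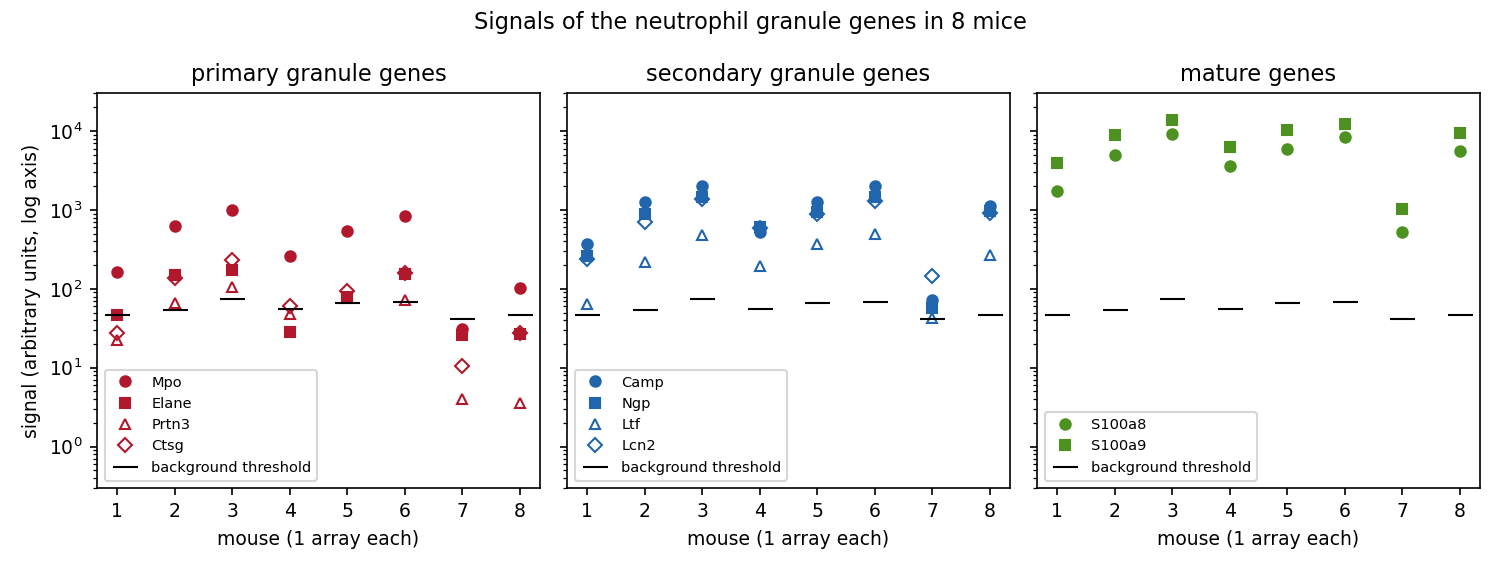
Signal of each gene (log axis, arbitrary units) in each of the 8 mice, in a panel for each stage, with the background threshold of each array as a black bar. Mouse 7 is lowest for Mpo and for the secondary and mature genes, and mouse 8 lies well above background for the secondary and mature genes but has only Mpo above it among the primary genes.

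All 10 genes varied more between mice than most genes did. Their SD on the log2 scale ran from 1.15 (Lcn2) to 1.95 (Prtn3) with a median of 1.45, against a median of 0.20 over the 13670 genes above background on at least 1 array. An SD over 1 was found in 10 of the 10, against 2.63% of those genes, and in 5 of the 10 when mouse 7 was left out. The spread of Elane, Prtn3 and Ctsg includes values below background: with signals under the threshold set to it, 7 of the 10 exceeded 1. Without mouse 7 and with signals set to the threshold, the share over all genes was not computed, so 2.63% is no measure for those counts. Mouse 7 held the lowest signal of Mpo and of all 6 secondary and mature genes, against 8.94% of all genes tested; for Elane, Prtn3 and Ctsg the lowest mice were all below background.

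The stages parted in mouse 8. The level of a stage in a mouse was taken as the mean, over its genes, of the log2 deviation from the 8-mouse mean. In mouse 8 the primary genes stood at -1.73, while the secondary genes stood at 0.56 and the mature genes at 0.53. Primary minus secondary was -2.30 in mouse 8 and at most 0.76 from zero in the other 7 mice, where it had a median of 0.28 and an SD of 0.29. Primary minus mature was -2.27 in mouse 8 and between -0.09 and 0.75 in the others. Secondary minus mature stayed between -0.37 (mouse 1) and 0.25 (mouse 6) in all 8 mice, and was 0.03 in mouse 8. These levels are descriptions, and 3 of the 4 primary genes were below background in mouse 8.

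**Figure D2:**
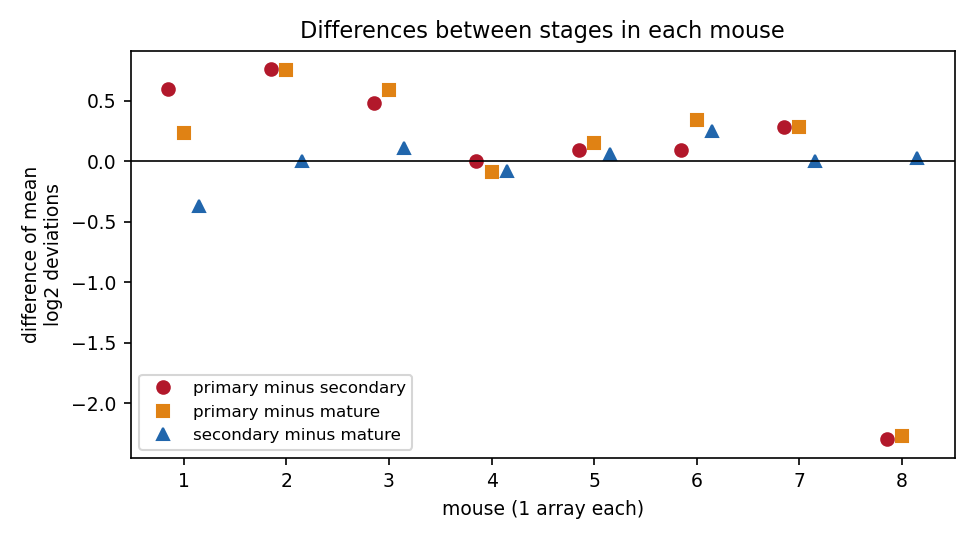
Difference between the mean log2 deviations of 2 stages in each mouse, with primary minus secondary as circles, primary minus mature as squares and secondary minus mature as triangles. Mouse 8 lies at -2.30 and -2.27 for the first and second of these and at 0.03 for the third.

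Mpo, the primary gene above background in mouse 8, showed the same parting without the others. Its signal there was 0.396 times that in mouse 4 and 0.192 times that in mouse 5. Camp was 2.18 and 0.889 times, Ngp 1.58 and 1.01 times, and S100a9 1.51 and 0.923 times the signals of these mice. With Mpo alone for the primary stage, primary minus secondary was -2.01 in mouse 8 and between -0.41 and 0.74 in the other 7. With every signal under the threshold set to it, the difference was -1.44 in mouse 8, but the other 7 mice then spread from -0.37 to 1.44. Signals in mouse 8 were lower than in mouse 4 for 56.4% of the genes tested and under 50% of them for 1.99%.

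Whether genes follow the mature stage across mice was tested for all 13669 other genes above background on at least 1 array, with a slope on the log2 signal of S100a9 (limma, Benjamini-Hochberg adjustment over these genes). A slope of 1 means that a gene changes by the same factor as S100a9. In all, 25 genes (0.183%) rose with S100a9 and 0 fell at the 0.05 threshold; at an unadjusted p under 0.05 the counts were 260 (1.9%) and 98 (0.717%). All 4 secondary genes and S100a8 were among the 25. The count moved to 11 without mouse 3 and without mouse 6, to 43 without mouse 8, and to 10 that rose and 3 that fell without mouse 7.

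Ngp had a slope of 1.28 ± 0.05 (SE, limma adjusted p = 2.78e-07) and Camp one of 1.30 ± 0.06 (limma adjusted p = 2.17e-06). S100a8 had a slope of 1.11 ± 0.04 (limma adjusted p = 2.78e-07). No test against a slope of 1 was run. The slope of Ltf was 1.0 ± 0.12 (limma adjusted p = 0.00619) and that of Lcn2 0.90 ± 0.09 (limma adjusted p = 0.00137). The 5 calls held when any single mouse was left out, but the sizes of the slopes moved. Without mouse 7 they were 1.6 ± 0.15 for Ltf, 1.34 ± 0.11 for Lcn2, 1.45 ± 0.12 for Camp, 1.35 ± 0.09 for Ngp and 1.29 ± 0.06 for S100a8. The signal of Ltf in mouse 7 (42.6) lay just above the threshold of 41.7. Without mice 1 and 7, the farthest from the median of S100a9, only S100a8 (limma adjusted p = 0.00778) and Camp (0.0267) passed, and the slopes of Ngp, Ltf and Lcn2 were 1.18 ± 0.14, 1.33 ± 0.24 and 1.14 ± 0.17.

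None of the 4 primary genes passed this test. Mpo had a slope of 1.21 ± 0.22 (limma adjusted p = 0.0817) and Ctsg one of 1.06 ± 0.21 (limma adjusted p = 0.156). Prtn3 (1.03 ± 0.39) and Elane (0.63 ± 0.24) both had a limma adjusted p of 1. Their SEs were 0.21 to 0.39, against 0.04 to 0.12 for the secondary genes and S100a8. Without mouse 8, Mpo (slope 1.33, limma adjusted p = 1.68e-05), Prtn3 (1.23, 0.00329) and Ctsg (1.16, 0.00452) passed and Elane (0.72, 0.545) did not, among 43 genes called. Elane and Prtn3 were above background in mice 2, 3, 5 and 6 only and Ctsg in mice 2 to 6, so their slopes rest partly on signals below it. With all 8 mice and signals under the threshold set to it, the slopes on S100a9 were 0.27 ± 0.09 for Prtn3, 0.54 ± 0.17 for Ctsg and 0.49 ± 0.17 for Elane. The difference between the slopes of primary and secondary genes was not itself tested in the fit on S100a9 alone.

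**Figure D3:**
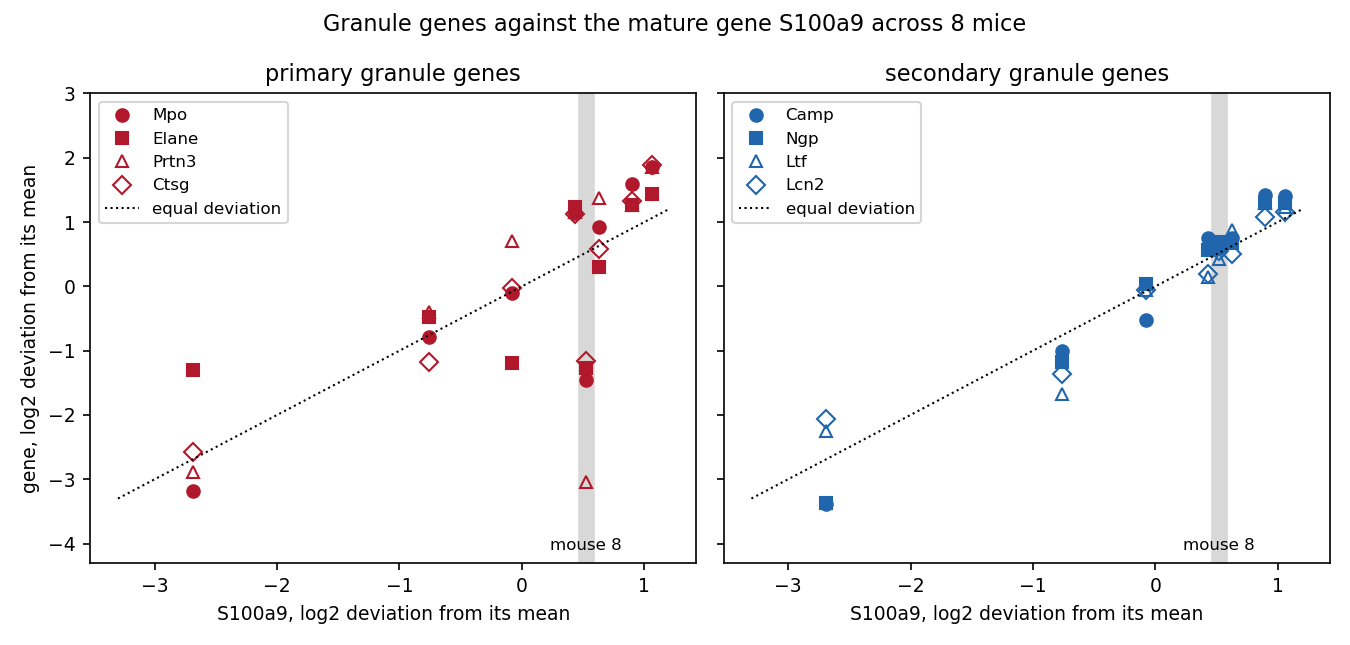
Log2 deviation of each primary (left) and secondary granule gene (right) from its 8-mouse mean against that of S100a9, a point for each mouse. The grey band marks mouse 8, where the 4 primary genes lie between -3.04 and -1.16 (only Mpo of these above background) and the 4 secondary genes between 0.43 and 0.69.

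Correlations with S100a9 over the 8 mice ran from 0.64 to 0.86 for the 4 primary genes and from 0.94 to 1.0 for the 4 secondary genes. Mpo and S100a9 had r = 0.86 (exact permutation p = 0.00784, two-sided) and rho = 0.81 (exact p = 0.0218), and r = 0.59 without mice 1 and 7. Camp and S100a9 had r = 0.99 (exact permutation p = 0.000174) and rho = 0.95 (exact p = 0.00114), and r = 0.97 without those mice. Ctsg and Mpo had r = 0.99 (exact permutation p = 4.96e-05) and rho = 0.98 (exact p = 0.000397), and r = 0.98 without mice 7 and 8. After adjustment over the 13669 genes set against each of S100a9 and Mpo, none of these passed (adjusted exact p of r at 1, 0.181 and 0.339; of rho at 0.565, 0.459 and 0.775). Among all 13669 genes the exact test called 0, with 299 positive correlations with S100a9 (2.19%) and 352 with Mpo (2.58%) at an unadjusted p under 0.05. The smallest p that the orders of 8 mice can give is 2.48e-05, so at least 7 genes at that p were needed for any to pass.

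As a description, the median r of the 6 pairs of primary genes was 0.89 and that of the 6 pairs of secondary genes 0.96. Between primary and secondary genes it was 0.76 over 16 pairs (0.59 to 0.88), and 0.96 when mouse 8 was left out. All of these pairs share the same 8 arrays.

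A second fit took S100a9 and Mpo together, to see which genes follow the primary stage beyond what Mpo shares with the mature one. Elane, Prtn3 and Ctsg had slopes on Mpo of 0.89 ± 0.22, 1.61 ± 0.26 and 0.85 ± 0.15, against -0.02 to 0.08 for the secondary genes and S100a8. None of the 8 passed over 13668 genes (limma adjusted p = 0.931, 0.494 and 0.734 for the 3 proteases and 0.998 for the others). These slopes depend on signals below background and on mouse 8. With signals under the threshold set to it, the slope of Prtn3 was 0.27 ± 0.10, that of Elane 0.60 and that of Ctsg 0.63. Without mouse 8 the slopes on Mpo were -0.44 ± 0.82 for Prtn3, 3.24 ± 0.65 for Elane, 1.43 ± 0.68 for Ctsg and 0.93 ± 0.32 for Camp, and none passed. Mpo and S100a9 had r = 0.99 without mouse 8, so the fit could then hardly tell their slopes apart. In all, 0% of genes rose with Mpo beside S100a9 and 0.00732% (1 gene) fell; at an unadjusted p under 0.05 the counts were 377 (2.76%) and 80 (0.585%). The gene that fell was Mx1, an interferon-induced antiviral GTPase, named here after its values were seen. It was highest in mouse 8 at 1526.8, its lowest signal was 56.5, and the call ended when any of mice 1, 2, 3, 5, 6 or 8 was left out.

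The slopes on S100a9 in the same fit were 1.28 ± 0.10 for Ngp (limma adjusted p = 0.00268), 1.08 ± 0.09 for S100a8 (0.00268) and 1.2 ± 0.13 for Camp (0.0122), which with Mx1 were the 4 genes called (0.0293%); Camp did not pass without mouse 3 (0.0536), without mouse 8 (slope 0.07, limma adjusted p = 1) or with eBayes without trend (0.0789). At an unadjusted p under 0.05, 159 genes (1.16%) rose with S100a9 in this fit and 297 (2.17%) fell. Lcn2 (0.92 ± 0.18) and Ltf (0.95 ± 0.25) did not pass (limma adjusted p = 0.597 and 0.971). For Elane, Prtn3 and Ctsg the slopes on S100a9 beside Mpo were -0.45 ± 0.31, -0.93 ± 0.36 and 0.03 ± 0.22, and none passed. This parting rests on mouse 8. Without it 0 genes were called for either slope, but Mpo and S100a9 then had r = 0.99. The SE of S100a8 on Mpo was 0.31 there, against 0.06 with all 8 mice. The 0 calls therefore leave the slopes of that fit undecided.

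**Figure D4:**
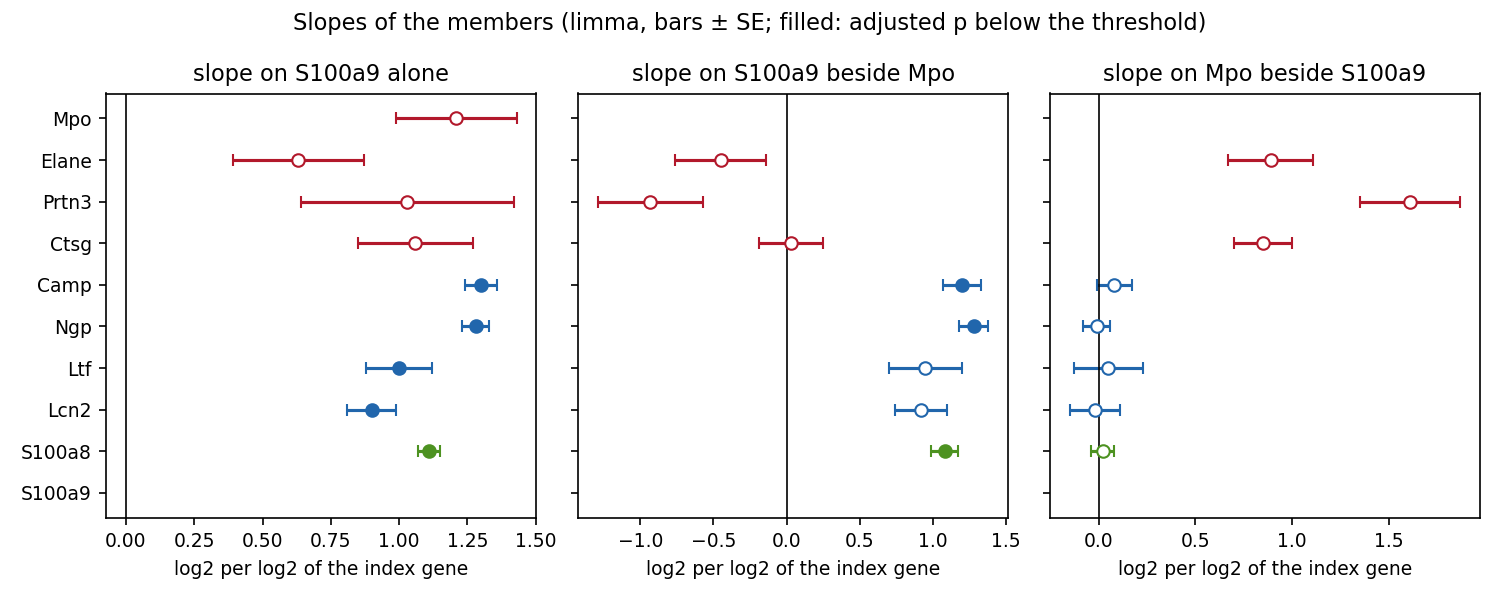
Slope of each gene, in log2 units per log2 unit of the index gene, on S100a9 alone (left) and on S100a9 and Mpo fitted together (middle and right), with primary genes in red, secondary in blue and S100a8 in green. Bars are SE and filled points passed the adjusted test. The secondary genes and S100a8 have slopes of 0.92 to 1.28 on S100a9 beside Mpo, of which those of Lcn2 and Ltf did not pass. The 3 proteases have slopes of 0.85 to 1.61 on Mpo, none of which passed.

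The promoter windows of the 10 genes are described here by the short sequences they hold. RefSeq (GRCm38.p6) gave for each of the 10 genes a window of 300 bases, 250 before the transcription start and 50 after it, and each was searched on both strands for 4 motifs of myeloid transcription factors. AGGAAGT, a form of the site of PU.1 and other ETS factors, was in 4 of 4 primary windows, 0 of 4 secondary and 1 of 2 mature ones (S100a8), and in 9.27% of all 32544 windows. TTNNGNAA, a form of C/EBP-type site, was in 0 of 4 primary, 3 of 4 secondary (Ngp, Ltf and Lcn2) and 2 of 2 mature windows. It was in 40.7% of all windows. Other forms of this site were not searched, so the 0 of 4 holds for these letters alone. AACNGNC, a MYB-type site, was in 3 of 4, 1 of 4 and 0 of 2, against 32.8%. TGTGGT, a RUNX-type site, was in 1 of 4, 1 of 4 and 1 of 2, against 16.7%. AGGAAGT was chosen with the window sequences in view, 10 windows are few, and a match is a run of letters and not a measured site or a cause.

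The 4 primary windows are shown because each holds AGGAAGT, which stands in capitals on the gene's own strand, 5′ to 3′, with its first base at -223 in Mpo, -84 in Elane, -94 in Prtn3 and -206 in Ctsg from the start.
Mpo, chr11:87793534-87793833, plus strand: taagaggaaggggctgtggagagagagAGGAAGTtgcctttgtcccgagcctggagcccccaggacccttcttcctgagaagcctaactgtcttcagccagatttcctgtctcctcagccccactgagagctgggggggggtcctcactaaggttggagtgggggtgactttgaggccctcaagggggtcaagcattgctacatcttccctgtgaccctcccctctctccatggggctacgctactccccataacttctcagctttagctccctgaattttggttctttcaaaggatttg
Elane, chr10:79886062-79886361, plus strand: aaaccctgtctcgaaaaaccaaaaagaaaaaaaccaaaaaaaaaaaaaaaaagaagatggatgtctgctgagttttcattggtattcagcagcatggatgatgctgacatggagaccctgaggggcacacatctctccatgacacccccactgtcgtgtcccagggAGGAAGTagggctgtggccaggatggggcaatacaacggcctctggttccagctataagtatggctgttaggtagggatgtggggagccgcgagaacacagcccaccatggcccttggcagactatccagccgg
Prtn3, chr10:79879417-79879716, plus strand: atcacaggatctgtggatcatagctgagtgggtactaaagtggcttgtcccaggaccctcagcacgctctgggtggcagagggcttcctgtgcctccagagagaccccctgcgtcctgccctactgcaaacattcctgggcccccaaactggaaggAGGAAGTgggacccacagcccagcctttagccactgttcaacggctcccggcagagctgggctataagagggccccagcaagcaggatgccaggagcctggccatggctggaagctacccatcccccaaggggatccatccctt
Ctsg, chr14:56102525-56102824, minus strand: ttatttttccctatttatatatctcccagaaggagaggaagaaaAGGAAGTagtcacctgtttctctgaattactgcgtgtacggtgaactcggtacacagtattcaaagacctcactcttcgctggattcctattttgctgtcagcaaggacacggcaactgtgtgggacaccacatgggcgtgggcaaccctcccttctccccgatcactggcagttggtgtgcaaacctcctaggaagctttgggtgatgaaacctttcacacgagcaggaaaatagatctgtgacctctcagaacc

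Of the genes that followed S100a9, 2 windows are shown with that of S100a9 itself. Capitals mark the C/EBP-type letters, which read as the reverse complement where they lie on the other strand, and none of the 3 holds AGGAAGT. The window of Ngp has 3 such matches, and those of Ltf and S100a9 have 2 each. Of the windows not shown, that of Camp has no match to these C/EBP-type letters, and that of S100a8 holds AGGAAGT on the other strand.
Ngp, chr9:110419558-110419857, plus strand: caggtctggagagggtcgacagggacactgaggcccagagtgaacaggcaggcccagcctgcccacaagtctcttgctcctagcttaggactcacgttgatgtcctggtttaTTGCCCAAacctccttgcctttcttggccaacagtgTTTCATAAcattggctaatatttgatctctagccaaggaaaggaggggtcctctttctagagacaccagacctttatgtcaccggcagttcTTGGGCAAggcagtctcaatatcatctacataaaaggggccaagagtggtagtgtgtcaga
Ltf, chr9:111019042-111019341, plus strand: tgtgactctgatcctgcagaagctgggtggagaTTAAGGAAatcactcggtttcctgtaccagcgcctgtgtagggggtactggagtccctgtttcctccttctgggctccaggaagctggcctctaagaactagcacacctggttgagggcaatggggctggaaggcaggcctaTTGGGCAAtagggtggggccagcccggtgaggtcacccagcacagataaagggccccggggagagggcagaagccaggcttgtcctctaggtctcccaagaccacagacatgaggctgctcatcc
S100a9, chr3:90695672-90695971, minus strand: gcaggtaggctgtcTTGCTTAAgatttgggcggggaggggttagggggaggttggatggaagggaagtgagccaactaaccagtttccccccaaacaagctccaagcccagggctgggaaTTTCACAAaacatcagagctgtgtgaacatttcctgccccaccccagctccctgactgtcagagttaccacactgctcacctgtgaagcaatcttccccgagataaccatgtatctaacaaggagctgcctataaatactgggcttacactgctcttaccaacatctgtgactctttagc

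Other genes of the neutrophil series moved with S100a9 in part. Of 14 further secondary and tertiary granule genes 13 were measured and 12 tested, 2 rose with S100a9 and 0 fell, and the median slope was 0.63 against -0.01 over all genes tested. Chil3, a chitinase-like protein of myeloid cells, measured 401.7 in mouse 3, 169.1 in mouse 8 and 32.8 in mouse 7 (slope 0.92, limma adjusted p = 0.00175). Cd177, a neutrophil surface glycoprotein, was highest in mouse 8 at 95.6 and lowest in mouse 7 at 8.4 (slope 0.91, limma adjusted p = 0.00877). The call of Chil3 held with each mouse left out, and that of Cd177 ended without mouse 7. Chil3 was above background on 7 arrays and Cd177 on 5, so their slopes rest partly on signals below it. None of the other 10 passed, such as the gelatinase gene Mmp9, which osteoclasts also make (112.6 to 429.9, slope 0.43, limma adjusted p = 1), and Slpi, a protease inhibitor (6.5 to 184.0, slope 1.07, limma adjusted p = 0.0508).

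Genes of early myeloid precursors were mixed. Of 9 measured 8 were tested, 1 rose with S100a9 and 0 fell, with a median slope of 0.13. The gene that rose, Fcnb, a ficolin of immature myeloid cells, measured 194.3 in mouse 3, 48.9 in mouse 8 and 6.2 in mouse 7 (slope 1.33, limma adjusted p = 0.0163), and its call ended without mouse 3, 6 or 7. Fcnb was above background on 6 arrays only. Myb, a transcription factor of dividing precursors, measured 247.9 in mouse 5 but 36.3 in mouse 8 and 26.7 in mouse 1, below background in these (slope 0.68, limma adjusted p = 1). Kit, Cd34 and Gfi1, which cochlear cells other than precursors can also express, stayed at 239.6 to 373.2, 432.9 to 536.3 and 294.5 to 378.2.

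Genes of the segmented cell of the blood were mixed. Of 12 measured, 7 were above background on any array and tested, 1 rose with S100a9 and 0 fell, and the median slope was 0.19. G0s2 (1660.3 to 2774.6), Alox5ap (129.1 to 230.3) and Ncf1 (82.7 to 167.2), which other cells also express, were above background on all 8 arrays and did not pass. Fpr2, a formyl peptide receptor, rose (21.3 in mouse 7 to 146.5 in mouse 3, slope 0.72, limma adjusted p = 0.0103), a call that ended without mouse 3, 6 or 7. Fpr2 was above background on 6 arrays only. Clec4d (35.7 to 182.2) was above background on 7 arrays, Il1b (40.3 to 110.4) on 6 and Padi4 (34.9 to 74.5) on 4, and none of these passed. The chemokine receptor gene Cxcr2 (1.2 to 24.1), the receptor gene Csf3r for the granulocyte growth factor (4.6 to 43.8) and Trem1 (6.5 to 31.3), all typical of segmented neutrophils, were below background on every array, as were Stfa2l1 and Il1r2. Of 9 granulocyte transcription factors tested, none rose or fell with S100a9, and their median slope was 0.03; Cebpa (777.5 to 1310.9) and Cebpb (146.9 to 324.5) were above background on all 8 arrays and Spi1, which encodes PU.1, on 3 (27.2 to 60.1). Macrophages, and other cells for the C/EBP genes, also express these factors.

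Several genes of other blood and marrow lineages moved with the granule genes. Of 7 erythroid genes tested 2 rose with S100a9, with a median slope of 0.98, namely the anion exchanger Slc4a1 (38.4 in mouse 7 to 1783.7 in mouse 6, 294.8 in mouse 8, limma adjusted p = 0.0168) and the transcription factor Gata1 (limma adjusted p = 0.0237). Of 8 genes of B lineage precursors tested 1 rose, Dntt, the terminal transferase of early lymphocytes (100.9 in mouse 5, limma adjusted p = 0.0193). Dntt was above background in mice 2, 3 and 5 only, Gata1 on 5 arrays and Slc4a1 on 7, so their slopes rest partly on signals that cannot be read. Outside the lists, and named after their values were seen, the antibody genes Igk (6.8 in mouse 7 to 1532.0 in mouse 6, slope 1.92, limma adjusted p = 0.000201), Igkv8-30 (slope 2.13, 0.000697) and Jchain (slope 1.14, 0.00247) of B and plasma cells also rose with S100a9. The calls of Igk and Igkv8-30 ended without mouse 7, and that of Jchain held with each mouse left out. In mouse 7 Igk (6.8), Igkv8-30 (4.4) and Jchain (23.2) were below the threshold of 41.7, so their slopes too rest partly on signals that cannot be read. Without mouse 3, 6 or 7 none of the calls of Slc4a1, Gata1 and Dntt held, nor did that of Dntt without mouse 2. None of 12 cell division genes passed, although all 12 slopes were positive (median 0.51). None of 7 platelet, 13 monocyte and macrophage, 8 osteoblast or 6 osteoclast genes passed either, with median slopes of 0.63, 0.06, 0.14 and 0.36. In mouse 8 the mean deviations were -0.79 for erythroid, -0.86 for platelet, -0.77 for cell division, -0.47 for B precursor and -1.01 for osteoblast genes, beside -1.73 for the primary and 0.56 for the secondary members. The part of these cells in the members' pattern was not tested.

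Mucosa and keratinocyte genes were listed because such cells can also make Lcn2, Ltf or S100a8; their part in the members' values was not tested. Airway-type mucosa genes had a mean deviation of 3.46 in mouse 5 and at most 0.13 in the others, and Bpifa1, a secreted mucosal protein, measured 18386.6 in mouse 5 and 1079.9 to 7395.0 elsewhere. In mouse 5, Lcn2 measured 877.3 and Ltf 370.6. None of 8 mucosa genes and 3 keratinocyte genes passed the test of slope. Of 9 keratinocyte genes measured, Krt10 was above background on all 8 arrays (444.5 to 646.2), Krt14 on 3 and Krt5 on 2. The others, such as Krt1 and Krt6a, were below it on every array. Of 12 inflammatory genes, Ptgs2 (162.2 to 509.5, highest in mouse 8) and Icam1 (195.7 to 282.9) were above background on all 8 arrays and Ccl2 on 1. The other 9, including Il6, Tnf and Cxcl1, were below it on all arrays, and none of the 3 tested passed. Of 9 genes of eosinophils, basophils and mast cells, 2 exceeded background on any array, the eosinophil genes Prg2 (38.7 in mouse 7 to 639.5 in mouse 3) and Epx (12.9 to 122.2), and neither passed. Of the small lists of mature B cells and of T and natural killer cells, 1 and 2 genes could be tested and none passed. Of 4 genes tested that draw neutrophils or hold them in marrow, none passed; the chemokine Cxcl12 measured 1811.6 to 2400.3.

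**Figure D5:**
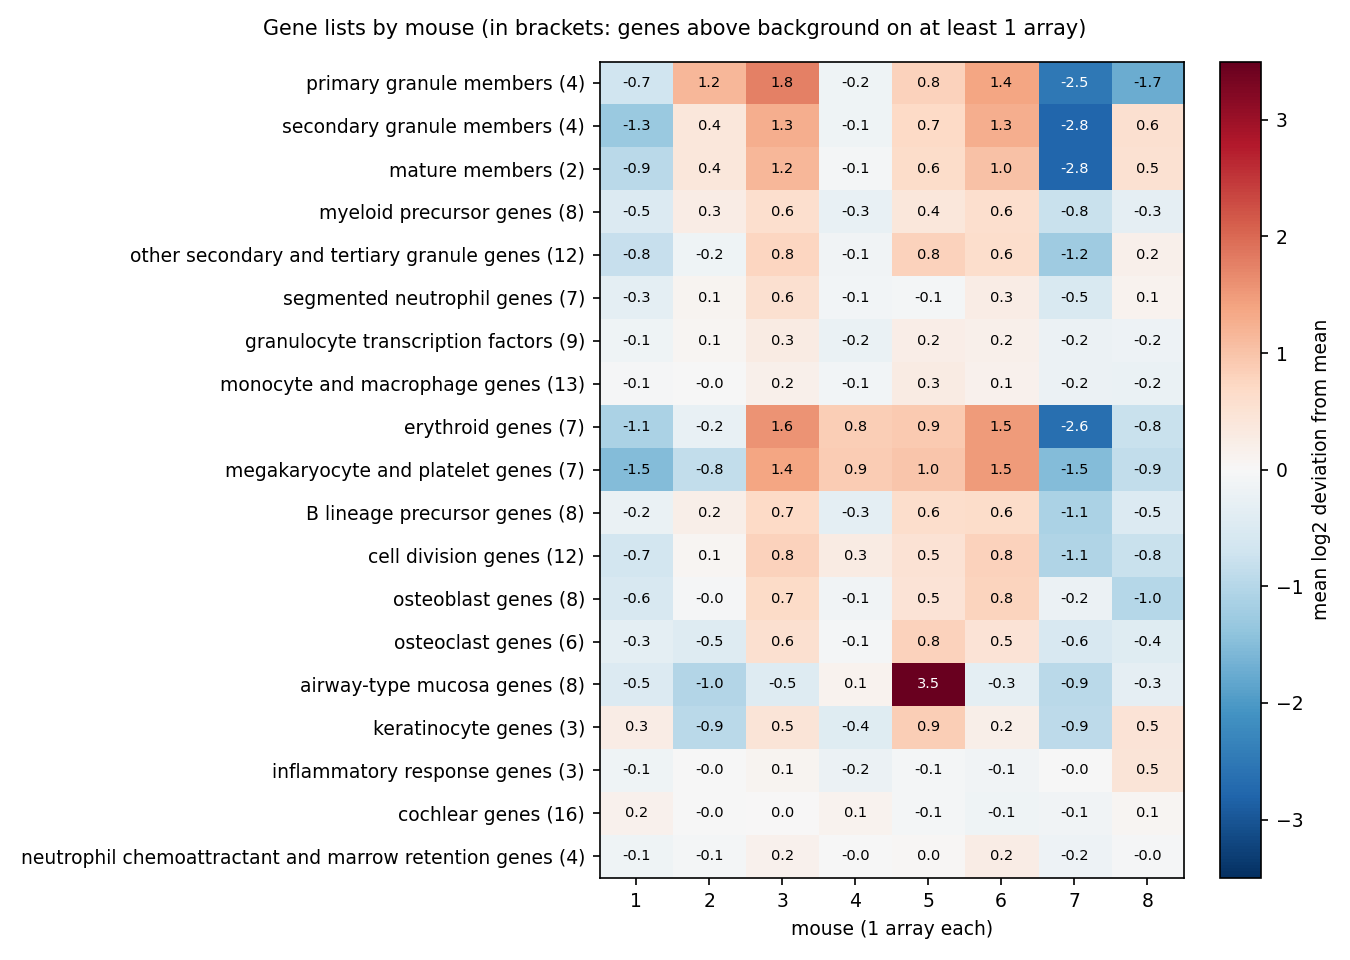
Mean log2 deviation of the genes of each list from their 8-mouse means, by mouse, with the number of genes above background on at least 1 array in brackets (lists with fewer than 3 such genes are left out, except the mature members). In mouse 8 the primary members (-1.73) part from the secondary (0.56) and mature members (0.53); cochlear genes stay between -0.14 and 0.16.

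The genes most like each index gene were taken among the 11475 genes above background on all 8 arrays, by Pearson's r over the 8 mice, with the 10 members left out. For S100a9 they were Aacs (r = 0.95), Ctbp1 and Themis2 (0.94 each), Hba-a2 (0.93), Tpx2 and Isg20 (0.92 each), Ccl6 and Alg13 (0.91 each), Tmed7 (0.90) and Laptm4a (0.89). Several of these hardly varied, such as Ctbp1 (4298.7 to 6148.9) and Tmed7 (4778.5 to 5491.1), whereas the myeloid chemokine Ccl6 ran from 78.7 to 334.7 and the nuclease Isg20 from 50.1 to 428.2. For Mpo they were Tpx2 (0.97), Ak3 (0.96), Fam111a (0.95), Dsn1 (0.94), Zfp750 and Tbc1d25 (0.92 each), and D17H6S56E-5, Ncapg, Slc25a45 and Bmf (0.91 each). Tpx2, a spindle protein, measured 61.5 to 129.2, Dsn1, of the kinetochore, 65.6 to 143.8, and Ncapg, a condensin subunit, 44.1 to 166.2, with 88.4, 79.1 and 63.2 in mouse 8. None of these correlations passed an exact permutation test adjusted over all genes, with adjusted p from 0.181 to 1.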

How the data were processed

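Expression was measured on 1 Affymetrix Mouse Genome 430 2.0 array for each of 8 mice. Per the labels' protocols TRIZOL-extracted RNA was amplified by the Ovation method and its cDNA labelled with biotin. The authors deposited linear intensities, which the submitters' processing notes attribute to MAS5, no version being stated there. Their mean without the lowest and highest 2% was 500.0 on every array.

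Of 45101 probe sets, 34958 named 1 gene (18194 genes), 932 several and 9211 none. Symbols followed the platform annotation, and 34754 probe sets matched a current gene by Entrez identifier. A gene was read by its brightest single-gene probe set, an _x_at set serving only genes with no alternative, and signals were floored at 1 before log2. The threshold came from 142 probe sets of 117 genes. Slopes were fitted with limma 3.58.1 (lmFit, eBayes with trend) in R 4.3.3 over genes above the threshold on at least 1 array, with Benjamini-Hochberg adjustment and 0.05 as the threshold; S100a9 and Mpo, as covariates, were not tested themselves, and their measurement error, which the fit ignores, can flatten slopes. Correlations were tested by exact permutation over all orders of the mice, two-sided. The slope tests were tested on simulated data with known slopes. Tables and figures were made in Python 3.11.15 (pandas 2.3.3, numpy 2.4.6, matplotlib 3.10.9, scipy 1.17.1). The files name no genome build; coordinates are given for the RefSeq promoter windows alone.

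Earlier results of these data were known when the members, the 19 context lists, the tests and the naming rule were chosen. Named are the 10 members, the 10 genes most like S100a9 and Mpo, and from each list the 4 genes of highest mean and the 2 of largest SD, some left out for room. Cd177, Chil3, Il1b, Padi4, Cxcr2, Csf3r, Trem1, Stfa2l1, Il1r2, Krt1, Krt6a, Il6, Tnf, Cxcl1, Igk, Igkv8-30, Jchain and Mx1 are outside this rule and were named after their values were seen. Of 214 genes on the lists, members included, 23 lacked a single-gene probe set and were not analysed here. Alternatives were quantile normalization, log2 of the signal plus 32, other filters, the mean of all probe sets, S100a8 and Elane as index genes, eBayes without trend, other thresholds and leaving out mice; setting signals below the threshold to it and taking Mpo alone for the primary stage were added after the data were seen. Each array is a separate mouse, so p-values measure the spread between these samples, assay error included.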

Additional observations from a re-analysis of the deposited data

Results flagged for a closer look

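The difference between the primary and the secondary granule genes stood apart in mouse 8. Primary minus secondary was -2.30 there, and its gap to the nearest other mouse made up 0.751 of the range over the 8 mice, above Dixon's 95% critical value for 8 values. Primary minus mature was -2.27 in mouse 8, with a gap of 0.722 of the range. Elane, Prtn3 and Ctsg were below background in mouse 8. With signals under the threshold set to it the gaps were 0.371 and 0.386 of the range, under the critical value, and with Mpo alone for the primary stage 0.583 and 0.58, above it. The 2 differences share the primary genes and are not independent. Signals and log2 signals of the 10 genes and 6 stage measures were examined, 26 in all, and chance alone flags about 1 in 20 such sets of values. No single gene stood apart in this way.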

How the results depend on the processing

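Wherever they were tested, the secondary genes and S100a8 kept their calls on S100a9 under the alternatives of normalization, low values, filter, probe sets, index genes and variance model, and with each mouse left out; leaving out mice 1 and 7 ended those of Ngp, Ltf and Lcn2. Exact permutation called none, but needed 7 genes at its smallest p for any to pass. The count of 25 genes that rose with S100a9 was 10 with log2 of the signal plus 32, 5 among genes above background on all 8 arrays, 9 with signals under the threshold set to it, 2 without mice 1 and 7 and 0 by exact permutation, and 11 to 43 without a single mouse; without mouse 7 the 13 included 3 that fell. For Mpo beside S100a9, the count of 1 became 0 with quantile normalization, log2 of the signal plus 32, no filter, the mean of all probe sets, S100a8 and Elane as index genes, eBayes without trend, signals set to the threshold and without mice 1 and 7, and was 0 to 2 without a single mouse. For S100a9 beside Mpo, the count of 4 became 10 with S100a8 and Elane as index genes and 0 without mice 1 and 7, and was 0 to 6 without a single mouse. Members with an SD over 1 numbered 5 to 10 without a single mouse, and members above background on all arrays 3 with the 99th percentile as threshold. For these settings the share over all genes was not computed. The causes were not tested.

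Signs turned for slopes that passed no test. On Mpo beside S100a9, with log2 of the signal plus 32, Ngp and Lcn2 were at 0.02 each; Ngp was at 0.01 without mice 1 and 7, and Lcn2 at 0.00 with signals set to the threshold. Without a single mouse, the slope on Mpo ran from -0.44 to 1.67 for Prtn3, from -0.03 to 0.07 for Ngp, from -0.00 to 0.11 for Ltf and from -0.06 to 0.34 for Lcn2. On S100a9 beside Mpo, Ctsg was at -0.03 with quantile normalization, -0.06 with log2 of the signal plus 32 and -0.16 with signals set to the threshold; Elane was at 0.83 without mice 1 and 7, and Prtn3 at 0.32 with S100a8 and Elane as index genes. Without a single mouse, this slope ran from -3.60 to 0.00 for Elane, from -1.31 to 1.83 for Prtn3 and from -0.74 to 0.33 for Ctsg. Without mouse 8, Mpo and S100a9 (r = 0.99) could hardly be told apart in this fit. No paired analysis was possible because the study has 1 group. Signals near background limit what can be read of Elane, Prtn3 and Ctsg.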
